A study of Homo sapiens with 36 samples.

Results

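Cisplatin alone was compared with control in 2102EP-C1 cells that carried no vector. These were 6 of the 36 RNA-seq libraries of the study, 3 labelled VC (treatment: control) and 3 labelled cisplatin, and all 17035 genes of their table were used. 2102EP-C1 is a cisplatin-resistant clone of 2102EP, a human embryonal carcinoma line, so both groups are 1 clone and share whatever made it resistant. The cisplatin group received 0.5 µM for 6 h and was harvested the day after exposure, and the controls received neither cisplatin nor GSK-J4. The other 6 libraries of the table (GSK-J4 alone and GSK-J4 with cisplatin) entered only the estimate of the spread. The same cisplatin dose was also given to 2102EP-C1 cells with the empty vector pLKO.1 and to NT2/D1-A4, a cisplatin-resistant clone of another embryonal carcinoma line, with 3 libraries per group in tables of their own.

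Cisplatin forms adducts and crosslinks on DNA. The damage stabilizes the transcription factor p53, which binds response elements near its targets and raises genes for cell cycle arrest (CDKN1A), death receptors (FAS), DNA repair (DDB2, XPC) and its own inhibitor (MDM2). Embryonal carcinoma cells are pluripotent tumor cells that usually keep an intact p53 and die readily after cisplatin, and resistant clones are used to study how that response is blunted.

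The libraries held 34816369 to 53645086 gene reads in the controls and 36517272 to 38423503 with cisplatin, and their TMM factors (the scaling for composition) ran from 0.990 to 1.003. Values are log2 CPM (reads scaled to library size, with a small constant added), so differences of low genes are understated. The embryonal carcinoma label held: all 10 markers listed for it were measured, with control means of 8.67 for NANOG, 9.41 for POU5F1 and 11.72 for DNMT3B, and 2.38 for TNFRSF8 (CD30) as the lowest. Of 40 markers of other cells, 23 were not analysed here, including SOX17, APOA1, PAX6, CGA, PTPRC and HBB. The summed level of the other 17 was 685 to 720 CPM in the controls and 775 to 785 CPM with cisplatin, carried mostly by NES, COL1A2, KDR and VIM, and its part in the results was not tested. The study calls its replicates biological, but the sources used here do not say whether they were separate cultures or days, so p-values measure the spread between these libraries. In these bulk samples fewer cells of a kind and less RNA per cell cannot be told apart, and since the strand setting of the count is not given in the sources used here, overlapping genes can share reads.

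The response to cisplatin was small and mostly upward. A gene was called changed at a fold over 1.3 and an adjusted p under 0.05 (limma-trend, two-sided, Benjamini-Hochberg over all genes). At this rule 150 genes rose (0.881% of those tested) and 32 fell (0.188%), 182 in all (1.07%), and in each of them the 3 cisplatin libraries lay outside the range of the 3 controls (14% of all genes separated upward and 14.1% downward). The median size of these changes was 0.51 on the log2 scale, only 6 genes rose and 2 fell by more than 2-fold, and the largest rise was 2.53-fold. Without the fold limit 695 genes passed (4.08%). Of the 150 rises, 141 were protein-coding genes and 26 belonged to 4 lists of p53 targets; of the 32 falls, 15 were genes of the mitochondrial genome. Between 117 and 172 genes were called with any 1 library left out, the fewest without control replicate 1 (118) or cisplatin replicate 2 (117), and 80 were called in all 6 of these fits.

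**Figure D1:**
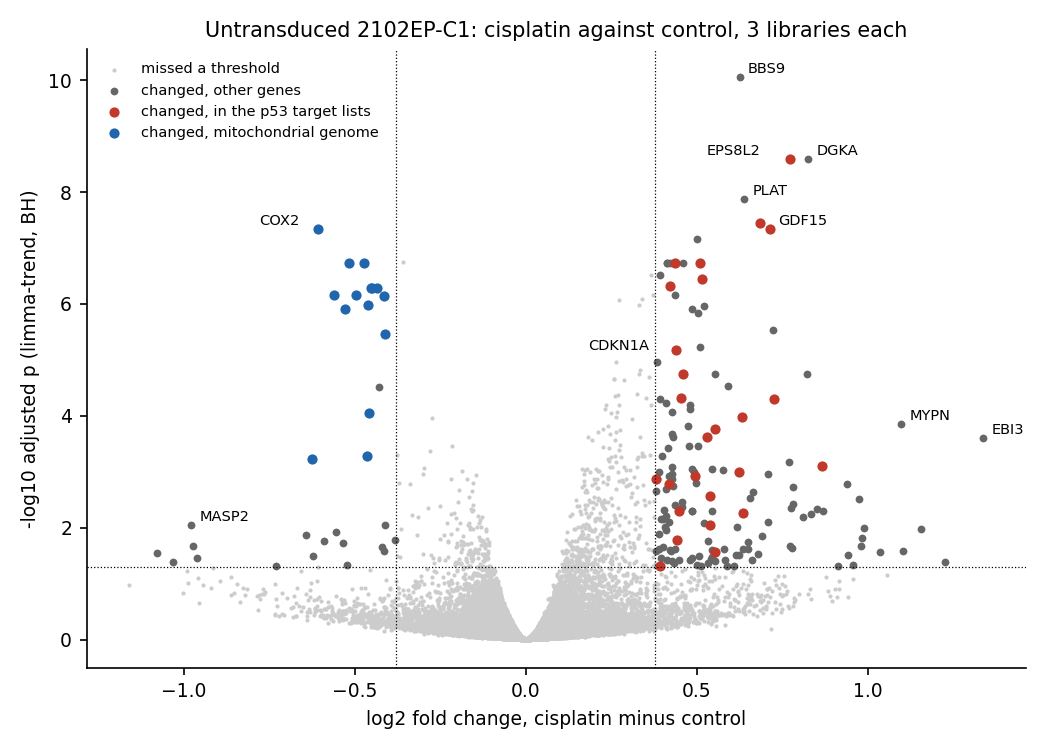
Each point is 1 of 17035 genes in untransduced 2102EP-C1 cells, with the log2 fold change (cisplatin minus control) on the horizontal axis and -log10 of the adjusted p on the vertical axis, and dotted lines mark the thresholds. Raised p53 targets (red) are spread through the 150 rises, and 15 genes of the mitochondrial genome (blue) hold most of the lowest p-values among the 32 falls.

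Of 122 genes in the 4 p53 target lists, 121 were measured. The lists were chosen with earlier results of these data known, so the counts are a description and not independent support. Of these, 26 rose (21.5%, against 0.881% of all genes) and none fell, 59 were higher and none lower at the adjusted p alone (3.06% and 1.02% of all genes), and the median difference over the 121 was 0.22 against 0.00 over all genes. The summed level of these genes was 4891 to 5050 CPM in the controls and 5678 to 5758 CPM with cisplatin.

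Among the 18 genes of p53 feedback and cell cycle arrest, 6 rose, and all 18 had a difference above 0, with a median of 0.28. CDKN1A (p21, the cyclin-dependent kinase inhibitor; chr6:36676463-36687332, GRCh38.p14) was at 4.37, 4.38 and 4.38 in the controls and 4.83, 4.81 and 4.81 with cisplatin. The replicates lay within 0.02 of each other, and the rise was 1.36-fold (0.44 ± 0.05 on the log2 scale, SE, n = 3 per group, adjusted p = 6.6e-06). BTG2, an antiproliferative gene, was at 3.12, 3.16 and 3.36 in the controls and 3.75, 3.78 and 3.76 with cisplatin, a rise of 0.55 ± 0.09 (adjusted p = 0.00017) and the largest of the list. TP53INP1, which promotes p53 phosphorylation, rose by 0.46 ± 0.06. SFN (14-3-3 sigma, a brake on entry to mitosis), PLK2 (a stress-induced polo-like kinase) and PRDM1 (a transcriptional repressor also needed for germ cells) rose by 0.45 ± 0.10, 0.42 ± 0.04 and 0.42 ± 0.08.

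The inhibitors that switch p53 off stayed under the fold limit in this comparison. MDM2, the ubiquitin ligase of p53 (chr12:68808172-68850686), was at 8.78, 8.83 and 8.89 in the controls and 9.11, 9.10 and 9.16 with cisplatin. Its groups did not overlap, but the difference was 0.29 ± 0.04, a 1.22-fold change (adjusted p = 2.3e-05). PPM1D, the phosphatase that resets the pathway, differed by 0.26 ± 0.04 (adjusted p = 4.4e-05). ZMAT3 (an RNA-binding protein), SESN1 (a sestrin that restrains mTORC1) and E2F7 (a repressor of cell cycle genes) differed by 0.33, 0.26 and 0.16, with adjusted p-values of 1.5e-05, 2.2e-05 and 0.0097. In pLKO.1 cells MDM2, PPM1D and ZMAT3 passed both thresholds (0.40, 0.39 and 0.44), and in NT2/D1-A4 they did not (0.19, 0.32 and 0.23).

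Among 27 measured genes of p53-dependent death, 7 rose, and the median difference was 0.20. FAS, the death receptor of the extrinsic route (chr10:88964050-89017059), was at 1.97, 2.07 and 2.10 in the controls and 2.53, 2.58 and 2.62 with cisplatin. All 3 cisplatin libraries were above every control, and the rise was 1.44-fold (0.53 ± 0.08, adjusted p = 0.00024). TNFRSF10A and TNFRSF10C, which code for a death receptor and a decoy receptor for TRAIL and are close copies that can share reads, rose by 0.63 ± 0.14 and 0.62 ± 0.11. FDXR, a mitochondrial reductase, was at 3.92, 3.95 and 4.07 in the controls and 4.71, 4.61 and 4.66 with cisplatin, the largest rise of the list (1.61-fold, 0.68 ± 0.06, adjusted p = 3.6e-08). SPATA18 (mitochondrial quality control), ANXA1 (annexin A1) and NINJ1 (membrane rupture in dying cells) rose by 0.63, 0.45 and 0.39.

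Members of the mitochondrial route of death were not called. BAX, the pore-forming effector, was at 6.40, 6.38 and 6.46 in the controls and 6.45, 6.42 and 6.45 with cisplatin, a difference of 0.03 with a 95% interval from -0.06 to 0.12. BBC3 (PUMA) differed by 0.22 ± 0.07 (adjusted p = 0.09), and PMAIP1 (NOXA) by 0.23 ± 0.05 (adjusted p = 0.0032), both under the fold limit. APAF1, the apoptosome scaffold, differed by 0.18 (adjusted p = 0.0084). In a separate list of 25 measured BCL2 family members and caspases none was called, where 1.07% of all genes were. The 1 that passed the adjusted p was CASP8, the caspase recruited by death receptors (0.22 ± 0.05, adjusted p = 0.013).

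Of 23 p53 targets in DNA repair and metabolism, 2 rose. DDB2, the lesion sensor of nucleotide excision repair (chr11:47214454-47239217), was at 4.77, 4.79 and 4.81 in the controls and 5.26, 5.21 and 5.20 with cisplatin (1.35-fold, 0.44 ± 0.04, adjusted p = 1.9e-07). DRAM1, a lysosomal inducer of autophagy, was at 4.42, 4.42 and 4.49 in the controls and 4.95, 4.90 and 5.03 with cisplatin (1.43-fold, 0.52 ± 0.05, adjusted p = 3.5e-07). XPC, the partner of DDB2 in lesion recognition, differed by 0.23 ± 0.03, and RRM2B, the p53-induced ribonucleotide reductase subunit, by 0.26 ± 0.03. Their adjusted p-values were 7.4e-05 and 1.1e-05, with the fold under the limit.

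The list of other p53 targets held 53 genes, of which 11 rose. GDF15, a secreted stress cytokine, was at 3.96, 3.96 and 4.1 in the controls and 4.71, 4.70 and 4.75 with cisplatin (1.64-fold, 0.71 ± 0.06, adjusted p = 4.6e-08). EPS8L2, an actin regulator, was at 3.60, 3.45 and 3.62 in the controls and 4.32, 4.32 and 4.34 with cisplatin (1.71-fold, 0.77 ± 0.06, adjusted p = 2.6e-09). HES2, a transcriptional repressor, had the largest rise among the p53 targets at 0.87 ± 0.15. KITLG (stem cell factor, the ligand of KIT on germ cells), NECTIN4 (an adhesion protein) and TRIM22 (an antiviral ubiquitin ligase) rose by 0.51, 0.73 and 0.49. SERPINB5, ABCA12, CEL and DNAI3 rose by 0.44, 0.55, 0.54 and 0.54. Of 8 measured lncRNAs regulated by p53 none was called, where 1.07% of all genes were. MIR34AHG, the host of miR-34a, was lower with overlapping libraries (-0.38 ± 0.15, adjusted p = 0.18). In pLKO.1 cells 3 of 7 rose, where 2.53% of all genes did, MIR34AHG among them (0.48, adjusted p = 1.9e-05). In NT2/D1-A4 none of 8 was called, where 2.45% of all genes were (MIR34AHG at -0.30, adjusted p = 0.44).

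With 1 library left out, 21 to 25 genes of the p53 lists were called, and 20 of the 26 were called in all 6 such fits. NINJ1 (adjusted p = 0.049 with all libraries) missed without 5 of the 6 libraries and stayed called without control replicate 3. ABCA12 missed without each library but cisplatin replicate 1, and SERPINB5 without control replicates 2 and 3 and cisplatin replicates 1 and 2, with adjusted p-values up to 0.15 and 0.098. TNFRSF10A missed without cisplatin replicate 2 (adjusted p = 0.053), and CEL without control replicate 1 (0.055).

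**Figure D2:**
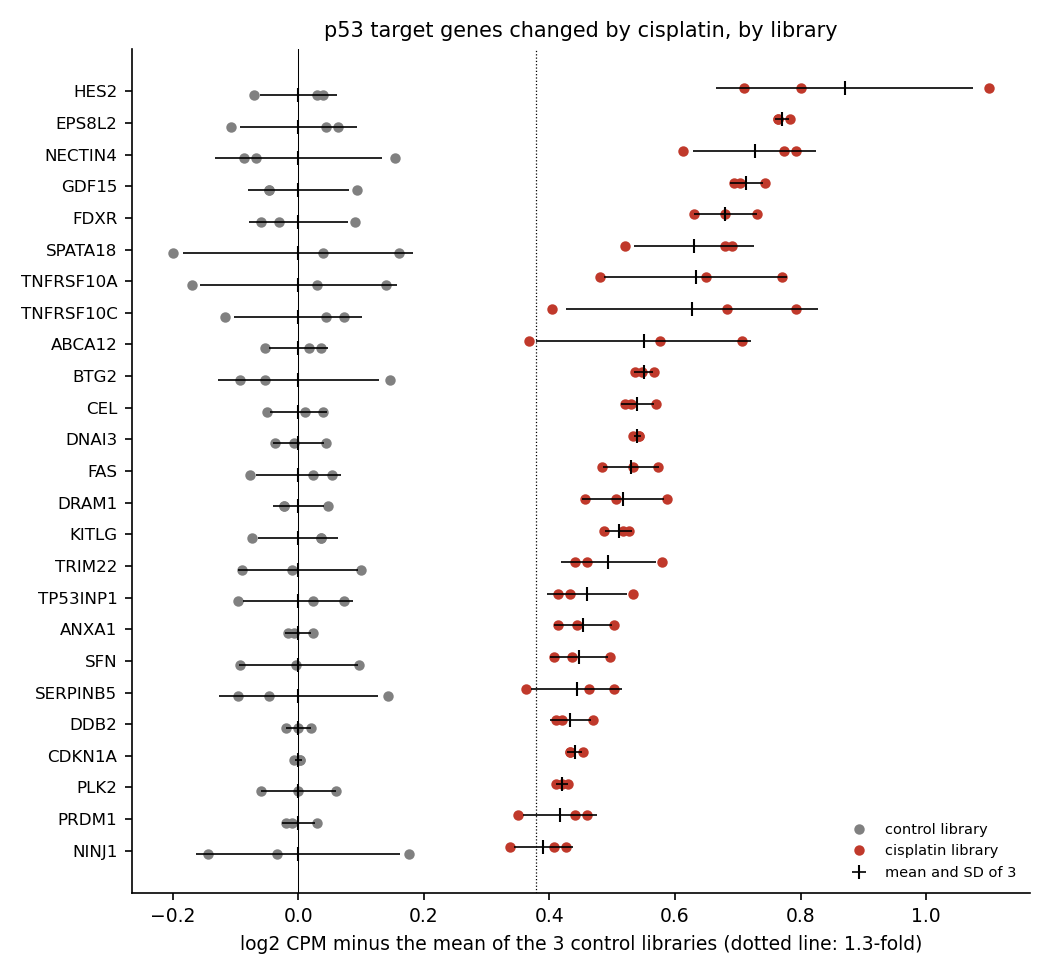
Log2 CPM of each library minus the mean of the 3 controls for 25 of the 26 raised p53 targets, with controls in grey, cisplatin in red and black marks for the mean and SD of 3 libraries. No gene has overlapping groups, and differences run from 0.39 (NINJ1) to 0.87 (HES2).

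Promoter sequence was read for the raised genes because p53 acts by binding DNA. RefSeq promoter windows (GRCh38.p14, 250 bases before to 50 after a start site) were found for 12821 of the genes tested and searched on both strands for the p53 response element consensus, 2 adjacent arms of 10 bases, with at most 2 letters off and the central C and G of each arm kept. A match was found at 52 genes (0.406%) and at 5 of the 110 raised genes with a window (ACTA2, CXCR2, DDB2, FAS and SIGLEC14). Of 100 genes of the p53 lists with a window, raised or not, 10 held a match. None of the lowered genes did, but at 0.406% so few genes would rarely hold a match, so this gives no contrast. These limits were chosen after the data had been seen, and others gave other counts: at most 1 letter off left DDB2 alone, and at most 3 letters off gave 10 raised genes and 201 in all. The windows below show the elements at a death receptor gene, a repair gene and the p53 inhibitor, with the match in capitals, at chr10:88991181-88991480 (plus strand), chr11:47214724-47215023 (plus strand) and chr12:68808767-68809066 (plus strand).
FAS: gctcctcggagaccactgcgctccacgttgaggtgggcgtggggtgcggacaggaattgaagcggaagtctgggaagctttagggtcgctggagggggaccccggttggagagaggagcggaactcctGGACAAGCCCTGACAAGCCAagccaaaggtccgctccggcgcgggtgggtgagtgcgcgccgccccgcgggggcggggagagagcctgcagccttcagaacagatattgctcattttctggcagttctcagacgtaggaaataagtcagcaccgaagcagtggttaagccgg
DDB2: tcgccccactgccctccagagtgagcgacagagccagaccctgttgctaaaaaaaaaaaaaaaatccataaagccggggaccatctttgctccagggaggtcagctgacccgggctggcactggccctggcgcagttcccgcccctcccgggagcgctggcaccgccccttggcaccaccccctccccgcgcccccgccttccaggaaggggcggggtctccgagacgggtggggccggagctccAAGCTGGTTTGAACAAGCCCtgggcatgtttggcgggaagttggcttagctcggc
MDM2: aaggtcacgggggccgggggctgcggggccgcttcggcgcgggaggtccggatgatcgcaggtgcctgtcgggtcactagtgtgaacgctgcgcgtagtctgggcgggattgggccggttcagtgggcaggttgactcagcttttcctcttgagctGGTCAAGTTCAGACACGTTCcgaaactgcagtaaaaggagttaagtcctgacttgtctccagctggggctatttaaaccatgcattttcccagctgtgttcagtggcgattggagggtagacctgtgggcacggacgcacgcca
The DDB2 element at chr11:47214969-47214988 was 1 letter off the consensus and lies across the start site of its window. A gene can have several start sites, and these 3 windows lie within the gene spans given above. The FAS element (chr10:88991309-88991328) and the MDM2 element (chr12:68808923-68808942) were 2 letters off. FAS and ACTA2, which codes for smooth muscle actin, have start sites on opposite strands at this place, so their windows hold the same element. Both genes rose (ACTA2 by 0.71 ± 0.16, adjusted p = 0.0077, missed without control replicate 1 at 0.093 or cisplatin replicate 2 at 0.099). The span of ACTA2 (chr10:88935074-88991337) overlaps that of FAS, so the 2 genes can share reads and their rises may not be separate. The remaining matched sites among the raised genes are shown on each gene's own strand, to compare with those of FAS and DDB2.
ACTA2: TGGCTTGTCAGGGCTTGTCC
CXCR2: GTGCGAGTTCAGACAAGTCC
SIGLEC14: TTACAAGTCTGGACAAGCCC
CXCR2, a chemokine receptor, rose by 0.78 ± 0.16 (adjusted p = 0.0038), and SIGLEC14, a sialic acid receptor nearly identical in part to its neighbor SIGLEC5, by 0.77 ± 0.20 (adjusted p = 0.021, missed without control replicates 1 and 2 and cisplatin replicates 1 and 2). A match is a description of these letters and not evidence of binding.

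Outside the p53 lists 124 genes rose, and the change with the smallest p was among them. BBS9, a subunit of the BBSome of primary cilia named after its values were seen, was at 6.49, 6.42 and 6.56 in the controls and 7.15, 7.10 and 7.10 with cisplatin (1.54-fold, 0.62 ± 0.04), with an adjusted p of 8.9e-11. DGKA, a diacylglycerol kinase, was at 3.44, 3.50 and 3.45 in the controls and 4.27, 4.15 and 4.43 with cisplatin (1.77-fold, 0.82 ± 0.06, adjusted p = 2.6e-09). CER1, a secreted antagonist of nodal and BMP signals, rose by 0.82 ± 0.11 (adjusted p = 1.8e-05). CLCA2, named after its values were seen, rose by 0.72 ± 0.09.

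The other large rises with at least 1 CPM were at low levels, where a few reads move the ratio. MYPN, a sarcomere protein, was at -0.49, -0.44 and -0.52 in the controls and 0.38, 0.90 and 0.56 with cisplatin (2.14-fold, adjusted p = 0.00014). FOXP2 (a forkhead factor), LOC105378644, HHAT (the hedgehog acyltransferase) and RASSF9 rose by 0.97, 0.94, 0.87 and 0.85. LOC124901992, LGR6 (an R-spondin receptor) and CTNNA3 (an alpha-catenin) rose by 0.83, 0.81 and 0.78. HHAT missed the adjusted p without cisplatin replicate 2 (0.072), and LGR6 without cisplatin replicate 3 (0.065). EBI3, the beta subunit of interleukin 27 and interleukin 35, had the largest rise of all. Among 35 measured cytokine and interferon genes it was the only one called, where 1.07% of all genes were. EBI3 was at -0.97, -1.39 and -1.20 in the controls and 0.62, 0.18 and -0.34 with cisplatin, from 12 to 19 reads in the control libraries (1.34 ± 0.21, adjusted p = 0.00025).

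Of 27 measured immediate early and AP-1 genes 2 rose, both FOS-related subunits of AP-1, where 0.881% of all genes rose. FOSL1 rose by 0.43 ± 0.08 (adjusted p = 0.0013), and by 0.35 and under the fold limit without control replicate 1. FOSL2 was at 0.88, 0.89 and 0.79 in the controls and 1.35, 1.75 and 1.76 with cisplatin (0.77 ± 0.13, adjusted p = 0.00067). JUN and ATF3 differed by 0.14 and 0.23, with adjusted p-values of 0.11 and 0.073.

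Some of the rises were genes of the extracellular matrix and its turnover, which were grouped after the calls had been seen, so their counts are a description to be read beside the 0.881% of all genes that rose. PLAT, the tissue plasminogen activator, was at 3.98, 3.93 and 3.96 in the controls and 4.57, 4.61 and 4.60 with cisplatin (1.56-fold, 0.64 ± 0.05, adjusted p = 1.3e-08). PLAU, the urokinase activator, rose by 0.49 ± 0.09. Of 28 matrix proteases of the MMP and ADAMTS families 2 rose: MMP2, a gelatinase, was at 5.90, 5.94 and 5.99 in the controls and 6.49, 6.40 and 6.43 with cisplatin (0.50 ± 0.05, adjusted p = 6.8e-08), and MMP14, its membrane-bound activator, rose by 0.46 ± 0.05. Of 14 laminins and fibrillins 4 rose, among them FBN2 (0.52 ± 0.06), FBN1 (0.43 ± 0.07) and LAMA1 (0.40 ± 0.07). Of 34 collagens 1 rose, COL17A1, a collagen of hemidesmosomes (0.48 ± 0.07), and 9 were lower, with a median over the 34 of 0.09. COL1A2 differed by 0.37 ± 0.04, just under the fold limit (adjusted p = 7e-07), and passed the limit with library size scaling (0.38) and without control replicate 3 or cisplatin replicate 1 (0.39 each).

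A few epithelial junction genes were also among the rises, grouped in the same way, while most members of their families were not called. The medians were 0.03 over 12 claudins (5 lower, down to -0.66), 0.04 over 11 desmosome genes and 0.13 over 10 keratins (3 lower, down to -0.89). CLDN1, a tight junction protein, rose by 0.58 ± 0.10 and was the only one called of 12 claudins. The desmosome genes DSC3 and PKP1 rose by 0.48 ± 0.07 and 0.54 ± 0.14, 2 of 11. KRT17, a keratin with near-identical pseudogenes, was 1 of 10 keratins called (1.16 ± 0.27, adjusted p = 0.011) and missed without control replicate 1 or cisplatin replicates 1 or 3. LAMA1 lost its call without control replicate 2 or cisplatin replicate 2, and PKP1 without control replicates 1 or 2 or cisplatin replicates 2 or 3, with adjusted p-values of PKP1 up to 0.13.

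The falls were led by the mitochondrial genome, a group taken up after the calls had been seen. This small circular DNA codes for 13 proteins of the respiratory chain and ATP synthase and for ribosomal and transfer RNAs, and it is transcribed inside the organelle as long precursors. All 13 mRNAs fell (symbols here are without the MT- prefix), by 0.41 to 0.61 on the log2 scale, with a median of -0.46 and adjusted p-values from 4.6e-08 to 9e-05. Every one of the 3 cisplatin libraries lay under every control for all 13, where 14.1% of all genes separate downward. These reads made up 1.02%, 1.04% and 1.19% of the control libraries and 0.726%, 0.831% and 0.798% of the cisplatin libraries, or 1.085% ± 0.092 against 0.785% ± 0.053 (SD, n = 3). Control replicate 3 was the highest and cisplatin replicate 1 the lowest.

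COX2, a core subunit of cytochrome c oxidase, had the largest fall among the mRNAs: it was at 9.97, 10.02 and 10.17 in the controls and 9.32, 9.55 and 9.47 with cisplatin (0.656 of the control level, -0.61 ± 0.05). ND4, a complex I subunit and the most abundant of these mRNAs, was at 11.23, 11.24 and 11.48 in the controls and 10.77, 10.93 and 10.90 with cisplatin (-0.45 ± 0.05). ND6, the subunit read from the opposite strand, differed in the same direction (-0.43 ± 0.05), as did CYTB of complex III (-0.47 ± 0.05). ATP8 and ATP6 of the ATP synthase, whose reading frames overlap, fell by 0.56 and 0.50, and ND4L overlaps ND4 likewise, so these pairs can share reads. Nuclear copies of mitochondrial DNA can share reads with all of them.

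The other RNAs of this genome were less uniform. Of the ribosomal RNAs, which poly(A) selection captures poorly, RNR1 was at 7.73, 7.01 and 7.06 in the controls and 6.75, 6.71 and 6.46 with cisplatin (-0.63 ± 0.11, and -0.39 without the high control replicate 1). RNR2 differed by -0.30 ± 0.06 (adjusted p = 0.0011), under the fold limit. The transfer RNA TRNP fell by 0.46 ± 0.08, and TRNC, with only 18, 18 and 32 reads in the controls and 15, 13 and 12 with cisplatin, did not pass (adjusted p = 0.35). Of the 13 mRNAs, 9 stayed called without control replicate 3, when COX1, ND4, ND5 and ND6 fell under the fold limit at -0.34 to -0.37, and 11 without cisplatin replicate 1, when COX1 and ND5 did (-0.37 and -0.36). All 13 stayed called without any other single library.

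The nuclear genes of the same complexes were not called, though most were slightly lower. Of 74 measured nuclear genes of oxidative phosphorylation none was called and none passed the adjusted p alone (0.188% and 1.02% of all genes fell by these rules), with a median difference of -0.04. Of the 74, 63 were lower and 11 higher. The libraries of 18 separated downward and of none upward, where 14.1% of all genes separated downward and 14% upward. SDHD, NDUFB6, ATP5MC2, ATP5F1B and COX7B came nearest to a call (-0.14 to -0.07, adjusted p = 0.086 to 0.24). The share of the reads in the 74 genes was 0.830% to 0.855% in the controls and 0.814% to 0.831% with cisplatin. PPARGC1A, the coactivator that drives mitochondrial gene programs, was among the rises (0.49 ± 0.09, adjusted p = 0.001), and is named after its value was seen. It also rose in pLKO.1 cells (0.41), where the 13 mitochondrial mRNAs were higher. In NT2/D1-A4, where they were lower, it differed by 0.10 and was not called. A link between PPARGC1A and these mRNAs was not tested.

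**Figure D3:**
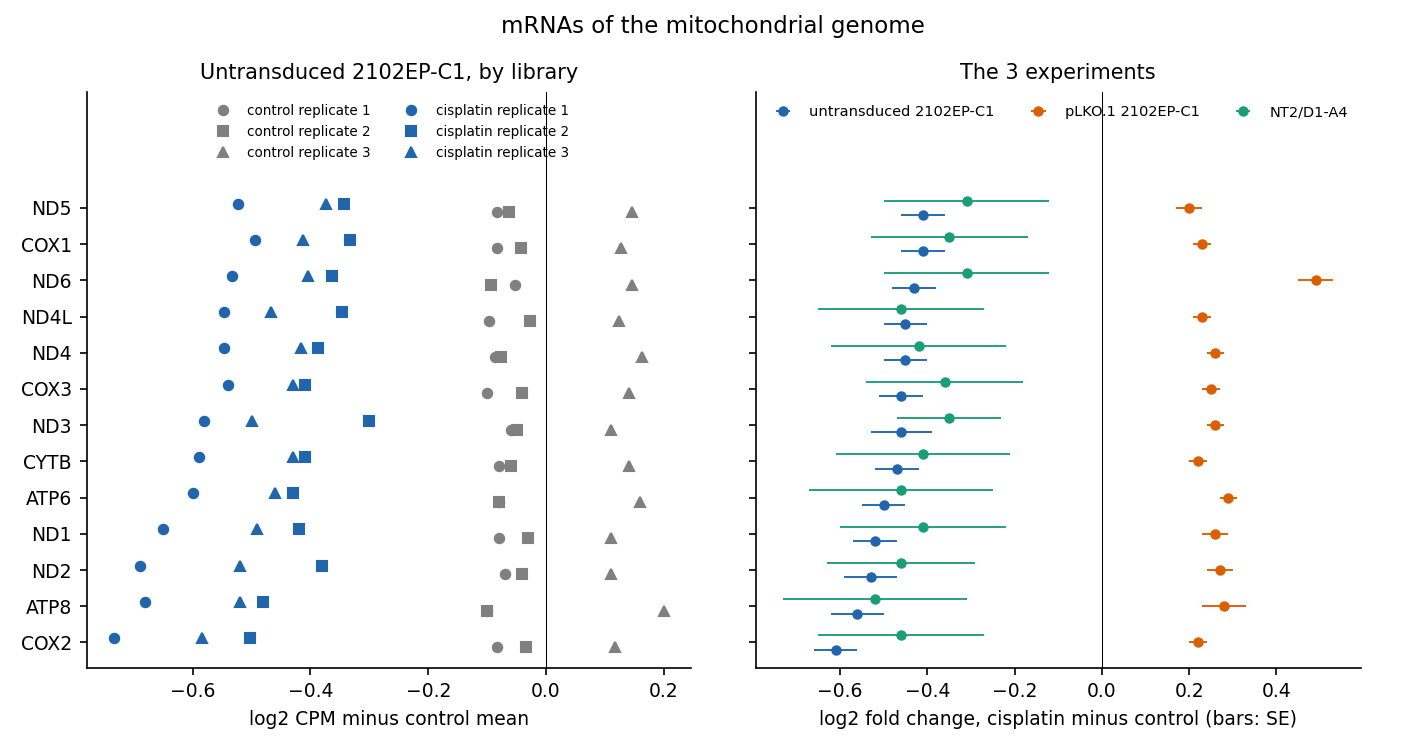
Left, log2 CPM minus the control mean for the 13 mitochondrial mRNAs in each of the 6 libraries; right, the log2 fold change by cisplatin with its SE in each of the 3 experiments. Untransduced 2102EP-C1 lies between -0.61 and -0.41, NT2/D1-A4 between -0.52 and -0.31, and pLKO.1 2102EP-C1 between 0.20 and 0.49.

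The other 17 falls were of nuclear genes, and most of the calls named here were lost when 1 library was left out. MASP2, a complement protease, was at 0.43, 0.48 and 0.34 in the controls and -0.74, -0.66 and -0.29 with cisplatin (-0.98 ± 0.22, adjusted p = 0.009), and missed without control replicate 2 (0.051), cisplatin replicate 1 (0.057) or cisplatin replicate 2 (0.053). MIR17HG, the host of the miR-17-92 cluster, fell by 0.54 ± 0.13 (adjusted p = 0.019, and 0.064, 0.10 and 0.15 without control replicate 1, control replicate 2 and cisplatin replicate 1). ZNF580, LOC124900276, GOLGA2P5, IQCK and SUGT1P4-STRA6LP fell by 0.64, 0.62, 0.55, 0.52 and 0.73, and each missed in at least 3 of the 6 fits that leave out a library, with adjusted p-values up to 0.34 (SUGT1P4-STRA6LP without cisplatin replicate 3, when its difference was -0.41). The one nuclear fall called in all 6 fits was ZCCHC12, at 4.2, 4.27 and 4.27 in the controls and 3.84, 3.86 and 3.75 with cisplatin (-0.43 ± 0.06, adjusted p = 3.1e-05), named after its values were seen.

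Pluripotency and polycomb genes changed little. Of 28 pluripotency and embryonal carcinoma genes 1 rose, PRDM1, counted above, and none fell, where 0.881% and 0.188% of all genes did. POU5F1 was at 9.43, 9.37 and 9.41 in the controls and 9.45, 9.40 and 9.42 with cisplatin, with a 95% interval of the difference from -0.05 to 0.09. NANOG and SOX2 differed by 0.04 and -0.06 (adjusted p = 0.59 and 0.34). DNMT3B, the de novo DNA methyltransferase that is abundant in these cells, was at 11.72, 11.76 and 11.68 in the controls and 11.58, 11.56 and 11.57 with cisplatin. It was lower in all 3 libraries, but the size was 0.903 of the control level (-0.15 ± 0.04, adjusted p = 0.025), under the fold limit, as were LIN28A (-0.11) and PRDM14 (-0.12). SOX15, a relative of SOX2, was higher at the adjusted p alone (0.21 ± 0.06, adjusted p = 0.029).

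The targets of GSK-J4 were not changed by cisplatin at these thresholds. KDM6A, the H3K27 demethylase on the X chromosome, was at 7.10, 7.10 and 7.14 in the controls and 7.23, 7.23 and 7.22 with cisplatin, a difference of 0.11 with a 95% interval from 0.04 to 0.18 (adjusted p = 0.051). KDM6A was also higher under the fold limit in pLKO.1 cells (0.10, adjusted p = 0.004) and NT2/D1-A4 (0.17, adjusted p = 0.0097). At the adjusted p alone 17.9% and 5.85% of all genes were higher in those experiments. KDM6B differed by 0.06 and -0.13 in them (adjusted p = 0.36 and 0.18). In untransduced cells KDM6B differed by 0.05 with overlapping groups (adjusted p = 0.76), and EZH2, the opposing methyltransferase, by -0.05 (adjusted p = 0.54). BMI1 was not analysed here. Of 41 measured genes of DNA methylation and polycomb none was called, where 1.07% of all genes were. DNMT3B and RBBP7, a histone-binding subunit of polycomb and other complexes, were lower at the adjusted p alone (RBBP7 by -0.12, adjusted p = 0.02). Of 51 chromatin remodelers none was called and KDM5B, KMT2C and KDM4B passed the adjusted p alone (0.15, 0.20 and 0.16).

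The remaining lists held no called gene. Over all genes 1.07% were called and 4.08% passed the adjusted p, so lists of these sizes would hold few. Of 47 genes of crosslink and excision repair only BRCA2 passed the adjusted p (0.21 ± 0.05, adjusted p = 0.021), and the median difference was 0.00. Of 31 measured genes of cisplatin transport and detoxification the efflux pumps ABCG2 and ABCC1 were higher by 0.19 and 0.16, and the metallothioneins MT1E, MT1F and MT1G lower (-0.18, -0.23 and -0.21), with adjusted p-values from 0.0084 to 0.027 and all under the fold limit. None of 19 NRF2 targets, 29 genes of the integrated stress response, 36 S phase genes or 51 G2/M genes passed the adjusted p, and their medians ran from -0.03 to -0.01. Of 18 measured regulators of p53 only PRKDC, the DNA-dependent protein kinase, passed it (0.18, adjusted p = 0.038).

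In a few lists most members differed in 1 direction by sizes under the fold limit, and these shifts were not tested. Of 30 replication-dependent histone genes, 25 were lower, with a median of -0.19, but all 30 together held only 120.5 to 126.5 CPM in the controls. In pLKO.1 cells 3 of 28 were higher (median -0.26), and in NT2/D1-A4 8 of 15 were (median 0.00). H1-2, at 5.18, 5.16 and 5.20 in the controls and 4.82, 4.79 and 4.80 with cisplatin, passed the adjusted p (-0.38 ± 0.06, adjusted p = 0.00049) just under the fold limit. It was called without control replicate 2 (-0.39) or cisplatin replicate 1 (-0.38). H1-2 passed both thresholds in pLKO.1 cells (-0.58, adjusted p = 1.2e-12) and in NT2/D1-A4 (-0.71, adjusted p = 8.5e-06). Of the histone genes measured there, 6 of 28 and 1 of 15 fell, where 0.462% and 0.396% of all genes did. Of 74 nuclear genes of oxidative phosphorylation 63 were lower, with a median of -0.04, as given above. Of 86 ribosomal protein genes, 80 were lower, with a median of -0.05, and the 1 that passed the adjusted p was RPS27L, a p53-induced paralog, which was higher (0.15, adjusted p = 0.023). Of 17 measured markers of other cells, 16 were higher, with a median of 0.17, and COL1A2, COL1A1 and VIM passed the adjusted p. All of these levels are shares of a library, in which other genes also moved.

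Gene length went with the direction of small differences. Over 14069 nuclear protein-coding genes the Spearman correlation of log2 fold change with gene length was 0.22, a description across genes that share the same 6 libraries and are not independent. The median difference was -0.02 in genes up to 5 kb, of which 41.1% were higher with cisplatin, and 0.07 in genes over 200 kb, of which 73.8% were higher. The share of genes that rose was 2.51% over 200 kb and 0.748% to 1.12% in the shorter bins. Each cisplatin library set against the control mean gave a correlation of 0.156 to 0.223, and each control set against the other controls gave -0.0904 to 0.0998. Raised genes outside the p53 lists had a median length of 61.3 kb and those in the lists 19.8 kb, against 32.8 kb over all genes.

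**Figure D4:**
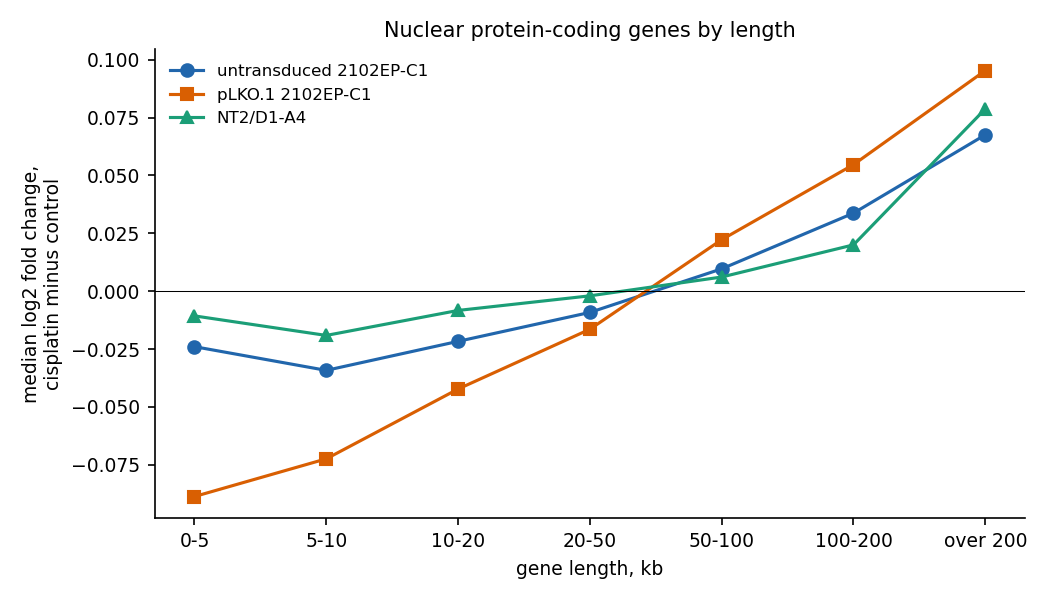
Median log2 fold change (cisplatin minus control) of nuclear protein-coding genes in 7 bins of gene length, 1 line per experiment. In untransduced 2102EP-C1 the medians run from -0.03 in the bin of 5 to 10 kb to 0.07 over 200 kb, and the other experiments are also highest over 200 kb (0.10 in pLKO.1 cells and 0.08 in NT2/D1-A4).

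The 2 other experiments with cisplatin share no library with this comparison, and each table was normalized by itself, so their values stand side by side and no difference between them was tested. Most rises were seen again. In pLKO.1 2102EP-C1 cells 149 of the 150 raised genes were measured, 145 were higher with cisplatin and 95 passed both thresholds, where 2.53% of all genes rose, and these 95 are 63.3% of the raised genes here and 22.8% of the 417 there. In NT2/D1-A4 134 were measured, 121 were higher and 62 passed, where 2.05% rose, or 41.3% of the raised genes here and 18.4% of the 337 there. At the adjusted p alone 131 of the rises passed in pLKO.1 cells and 83 in NT2/D1-A4, where 17.9% and 5.85% of all genes did. Of the 26 p53 targets 19 passed in pLKO.1 cells and 16 of 25 in NT2/D1-A4, and of the other 124 rises 76 and 46 did. CDKN1A rose by 0.63 and 0.75 in the other experiments against 0.44 here, and GDF15 by 0.60 and 0.97 against 0.71. BBS9 rose by 0.58 in both.

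Some rises did not pass in both of the other experiments. FOSL2 passed both thresholds in neither. In pLKO.1 cells it was higher by 0.26, under the fold limit and with overlapping libraries. Its adjusted p there was 0.047, where 17.9% of all genes were higher at the adjusted p alone. In NT2/D1-A4 it differed by -0.16 (adjusted p = 0.5). BHLHE40, a hypoxia and circadian repressor named after its values were seen, rose by 0.66 ± 0.13 here and 0.62 in NT2/D1-A4, and differed by 0.01 in pLKO.1 cells. Its controls were spread over 3.35, 2.85 and 3.83 against 4.01, 3.98 and 4.01 with cisplatin, and the rise was 0.41 without control replicate 2.

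Of the 27 lowered genes measured in pLKO.1 cells 7 were lower there and 2 passed (INHBE and ZCCHC12, where 0.462% of all genes fell), and 15 passed the adjusted p in the opposite direction, where 17.9% of all genes did. Among these 15 were all 13 mitochondrial mRNAs, which were higher with cisplatin in pLKO.1 cells by 0.20 to 0.49 (adjusted p-values up to 0.000118). For each of the 13 all 3 cisplatin libraries lay above the controls, where 23.9% of all genes separated upward. As these mRNAs are cut from long precursors, they are not 13 independent observations. Their share of the reads there was 0.982% to 0.991% without and 1.14% to 1.22% with cisplatin. In NT2/D1-A4 the same mRNAs were lower by 0.31 to 0.52, but the libraries overlapped, with shares of 0.507% to 0.982% and 0.500% to 0.660%, and none passed (adjusted p = 0.069 to 0.33). In the untransduced 2102EP-C1 table the share was 1.05% to 1.1% with GSK-J4 alone and 1.14% to 1.25% with GSK-J4 and cisplatin, beside the same controls. Of the 29 lowered genes measured in NT2/D1-A4, 26 were lower and 1, ZCCHC12, passed, where 2.45% of all genes were called in either direction, 0.396% fell and 3.58% were lower at the adjusted p alone. SLC30A2, a zinc transporter, rose there by 0.55 and fell by 0.42 here, a fall that missed with any 1 library left out (adjusted p up to 0.12).

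**Figure D5:**
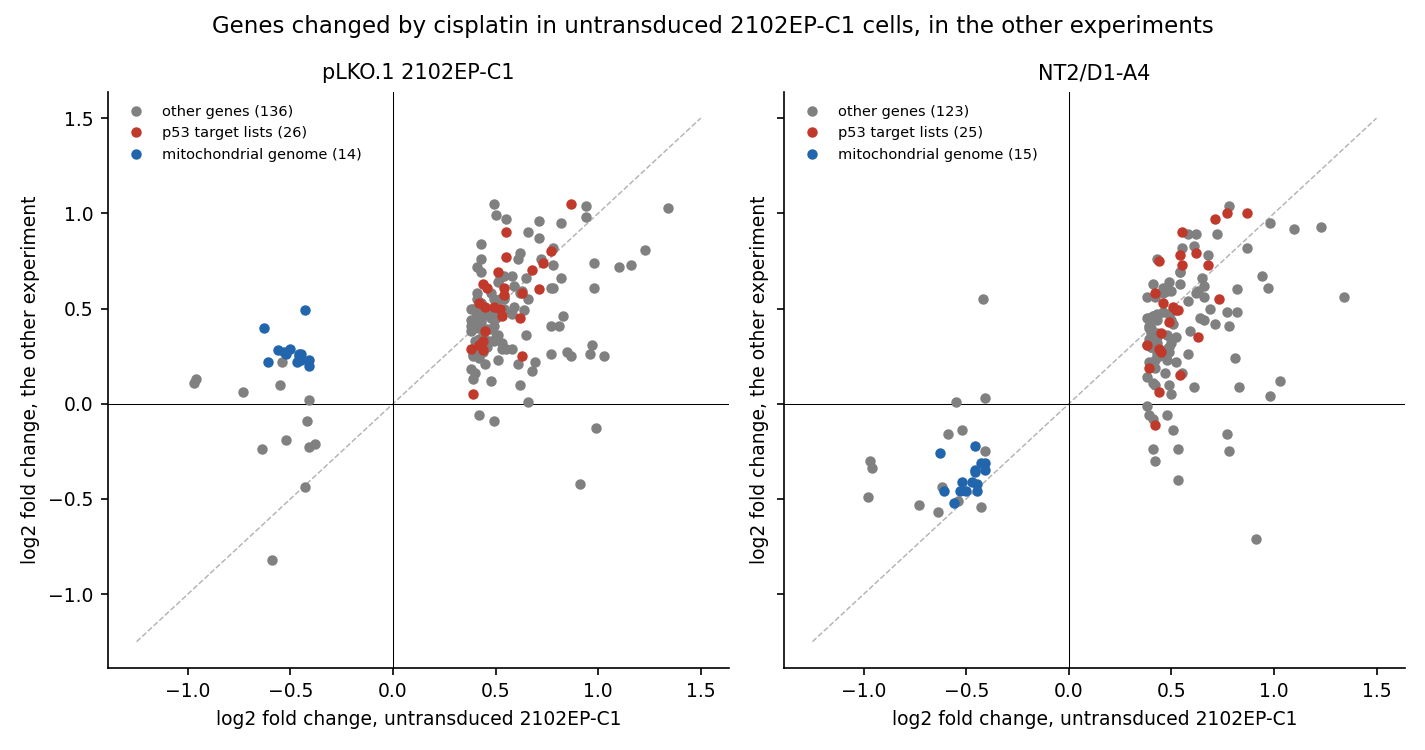
Log2 fold change of the genes called in untransduced 2102EP-C1 (horizontal) against the same gene in pLKO.1 2102EP-C1 (left) or NT2/D1-A4 (right), with p53 targets in red and mitochondrial genes in blue and a dashed line of equal change. The red points lie above 0 on the vertical axis for all 26 genes on the left and 24 of 25 on the right, and the blue points lie above 0 on the left and below 0 on the right.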

How the data were processed

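RNA was sequenced from 36 libraries in 3 tables, and 6 libraries gave the comparison described. Before deposit, the authors used Trimmomatic for trimming, STAR for alignment against GRCh38.p14 and featureCounts for counting, removed genes not over 0.5 CPM in at least 2 samples and applied TMM. Versions and the strand setting of the count are not given in the sources used here. The values the authors deposited are log2 CPM with a prior count of 3, and reads recovered from them were whole within 0.05 for 100% of values under 50 reads, so the count-based alternatives could be run.

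Deposited values were fitted with limma-trend (limma 3.58.1, R 4.3.3) on the 12 libraries of the table with a mean per group, and p-values were two-sided with Benjamini-Hochberg adjustment over 17035 genes. A call needed a fold over 1.3 and an adjusted p under 0.05. The other tables were fitted separately. Gene symbols, lengths and promoters came from RefSeq (17020 genes matched). Named genes were the 12 largest rises and falls whose mean reached 1 CPM and whose groups did not overlap, every called list member, a fixed set of p53, pluripotency and polycomb genes, and list members nearest to a call; BBS9, CLCA2, PPARGC1A, ACTA2, SIGLEC14, BHLHE40, ZCCHC12, INHBE, SLC30A2, RN7SL1 and the genes of the gene families and the mitochondrial genome were named after their values were seen. Some genes are not reported here. Members and lists were chosen with earlier results of these data known. The fit was tested on simulated data. Alternatives were the 6 libraries alone, a replicate block, a stricter filter, a prior count of 0.5, library size scaling, voom, and leaving out each library. Python 3.11.15 (pandas 2.3.3, scipy 1.17.1, numpy 2.4.6) wrote the tables and matplotlib 3.10.9 the plots.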

Additional observations from a re-analysis of the deposited data

Results flagged for a closer look

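Some called genes moved one way in all 3 cisplatin libraries of untransduced 2102EP-C1 and the opposite way in all 3 cisplatin libraries of the pLKO.1 vector cells. The difference between the experiments was not tested, since their tables were normalized separately. The log2 fold changes in pLKO.1 cells were 0.22 (COX2), 0.28 (ATP8), 0.27 (ND2), 0.26 (ND1), 0.23 (COX1), 0.29 (ATP6), 0.25 (COX3), 0.26 (ND3), 0.23 (ND4L), 0.26 (ND4), 0.20 (ND5), 0.49 (ND6) and 0.22 (CYTB) for the mitochondrial mRNAs, where untransduced cells had -0.61 to -0.41. The mitochondrial ribosomal RNA RNR1 was at 0.40 against -0.63. Outside the mitochondrial genome, MIR17HG was at 0.22 against -0.54 and the pseudogene GOLGA2P5 at 0.10 against -0.55. Their adjusted p-values in pLKO.1 cells were 0.031 and 0.27, so GOLGA2P5 did not pass there. With 3 libraries per group, 23.9% of all genes in the pLKO.1 table separate upward and 14.1% of all genes in the untransduced table separate downward. Against NT2/D1-A4, SLC30A2 was at 0.55 there and -0.42 here, and RN7SL1, an RNA of the signal recognition particle with many near-identical copies, at -0.71 there and 0.91 here. Their adjusted p-values in NT2/D1-A4 were 0.049 and 0.051, so RN7SL1 did not pass there. Both calls in untransduced 2102EP-C1 were lost without at least 5 of the 6 libraries, RN7SL1 falling to 0.55 without control replicate 1. The differences from NT2/D1-A4 were not tested either.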

How the results depend on the processing

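The count of 182 changed genes (150 up, 32 down) was 118 (97 up, 21 down) among the genes over 1 log2 CPM in every library, where fewer genes were tested, and 117 to 172 (97 to 150 up, 19 to 26 down) with 1 library left out, lowest without cisplatin replicate 2 (117) and control replicate 1 (118). The fit of the 6 libraries alone gave the most, 272 (209 up, 63 down), and the cause was not tested. Voom on the recovered reads called 183 genes. The p53 targets called were 21 to 26 and the mitochondrial mRNAs 9 to 13 under all alternatives run. Of the 27 lowered genes measured in pLKO.1 cells, 4 were lower at the adjusted p alone, where 18.2% of all genes were. The correlation with gene length was 0.277 in genes over 1 log2 CPM. Raised genes with a promoter match were 1 at 1 letter off and 10 at 3 letters off. With the replicate number as a block, 174 genes were called (142 up, 32 down) and NINJ1 and IQCK missed (adjusted p = 0.066 each); same-numbered libraries did not deviate together (correlations 0.033, 0.039 and 0.016 over 12487 genes), so they were not treated as pairs. Depth limits the low genes: 14 rises and 5 falls had a mean under 1 CPM.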
